A study of Mus musculus with 10 samples.

Results

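The blood-brain barrier transporters described here are 10 genes chosen for their known role and not by a limit on their values: the nutrient carriers *Slc2a1*, *Slc16a1* and *Slc7a5*, the efflux pumps *Abcb1a*, *Abcg2* and *Abcc4*, the organic anion carriers *Slco1a4*, *Slco1c1* and *Slc22a8*, and the transferrin receptor *Tfrc*. Earlier results of these data were known when they were chosen. All 10 were among the 15900 genes listed and the 15851 genes tested. Their 5' ends were counted by cap analysis of gene expression (CAGE), which sequences a short tag from the capped start of each RNA, in the hippocampi of 10 mice, 2 in each of 5 groups. The mice were male ICR mice of 9 to 10 weeks. The pre-SE group had no seizures and is labelled untreated. In the other 4 groups, status epilepticus (SE), which the study took as reached at 5 generalized convulsive seizures, was induced with pilocarpine (PILO). Methyl scopolamine, which keeps PILO from acting outside the brain, was given before it, and SE was ended with diazepam. The SE 6 h and SE 2 days groups were sampled at those times after SE. The SE + LEV 6 h and SE + LEV 2 days groups also received levetiracetam (LEV), an anti-epileptic drug, by mouth after diazepam, as 1 dose and 5 doses respectively. PILO, scopolamine and diazepam thus belong to every SE group and their part cannot be told apart from that of the seizures.

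The endothelial cells of brain capillaries are sealed by tight junctions, so that most polar molecules enter the brain only through carriers in their membranes. Solute carriers (Slc) bring in glucose, lactate, amino acids and thyroid hormone, ATP-driven pumps (Abc) return drugs and metabolites to the blood, and receptors such as that for transferrin carry proteins across in vesicles. Several of these genes are also used outside the vessel wall: *Slc2a1* and *Slc22a8* by the epithelium of the choroid plexus, *Slco1c1* by astrocytes, and *Slc7a5*, *Slc16a1* and *Tfrc* by neurons or glia. Seizures are known to open the barrier and to change the carriers and pumps of its vessels.

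The values are CPM, the tags of a gene scaled to the same total over all listed genes in each library, and the libraries held 10540696 to 51710969 tags. Differences are given as logFC, the difference of group means of log2(CPM + 0.1), with its standard error. The pseudocount makes the logFC of genes at low CPM smaller than their true change. A gene was called when its adjusted p was at most 0.05 (limma, two-sided, Benjamini-Hochberg adjustment over all genes tested). With 2 mice in a group, an exact permutation test of a single gene could not give a p below 0.333, and nothing in the labels says what else the mice of a group shared. Libraries differed in tissue that a dissection of the hippocampus can carry along. The summed CPM of 6 choroid plexus markers was 876 to 4031 in 4 libraries (pre-SE mouse 2, SE 6 h mouse 2, SE + LEV 6 h mouse 1 and SE + LEV 2 days mouse 1) and 9.33 to 70 in the other 6.

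**Figure D1:**
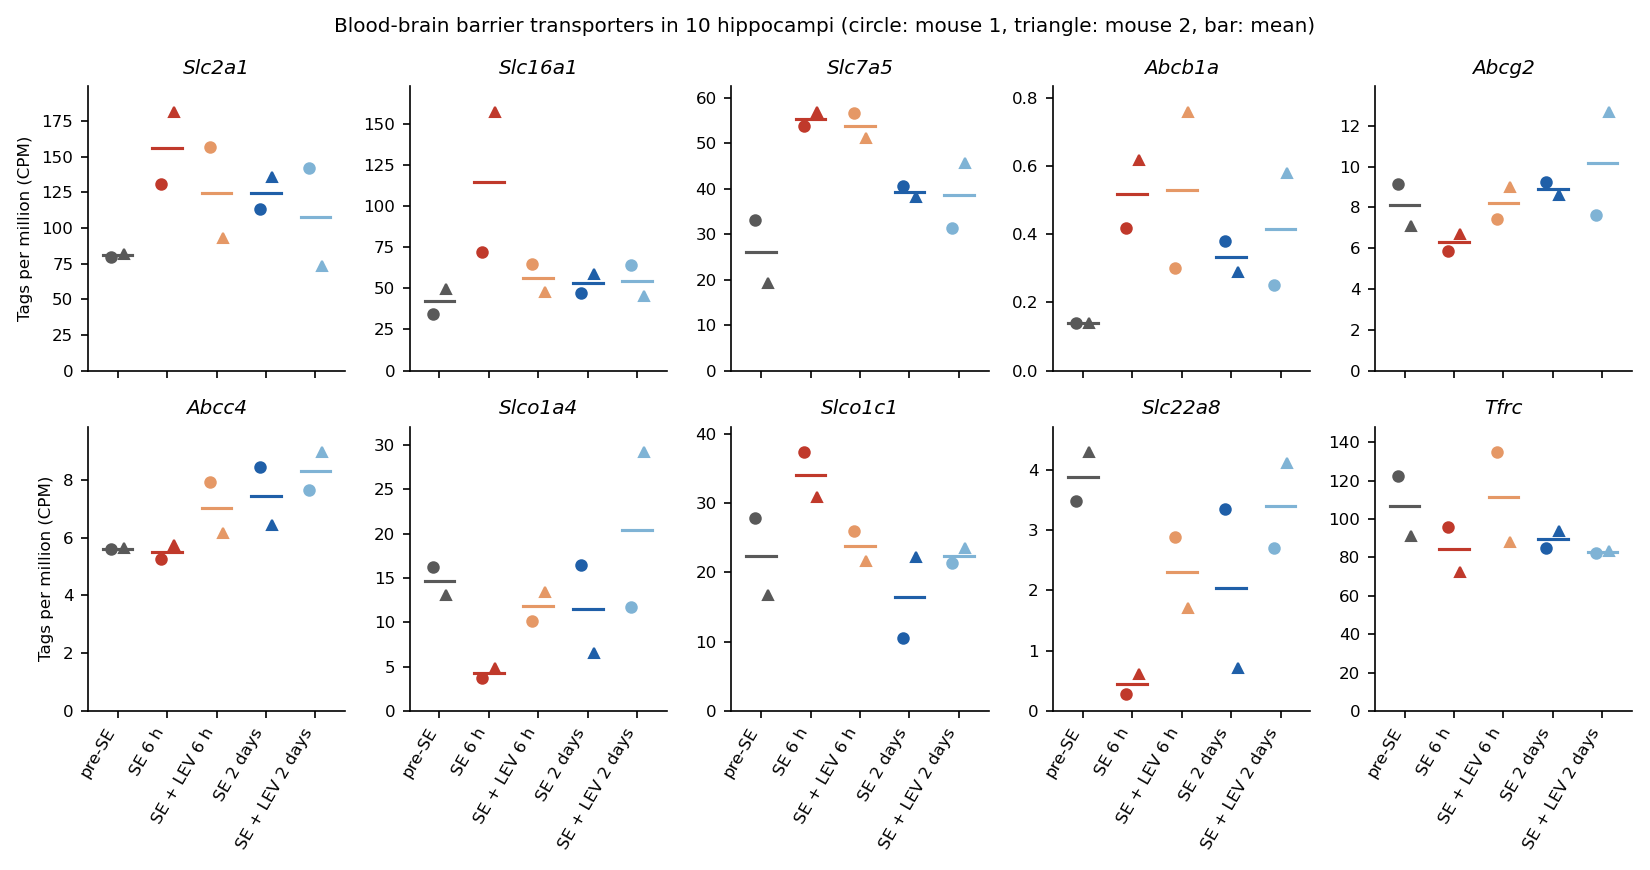
CPM of the 10 transporters in each mouse. Each panel is 1 gene with its own axis from 0, each symbol is 1 mouse (circle for mouse 1, triangle for mouse 2) and the bar is the mean of the group. *Slc22a8* and *Slco1a4* were lowest in both SE 6 h mice, and *Abcb1a* was lowest in both pre-SE mice.

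At 6 h after SE the 10 genes differed in direction, with 5 higher and 5 lower estimates. *Slc22a8* fell by 2.90 on the logFC scale and was called lower, as were 0.202% of all genes tested, and no member was called higher, against 2.76% of all genes. At an unadjusted p under 0.05, *Slc16a1*, *Slc7a5*, *Abcb1a* and *Slc2a1* stood higher and *Slco1a4* lower than in pre-SE mice, but their adjusted p ran from 0.076 to 0.22. Over all 15851 genes, 1460 higher and 1349 lower genes had an unadjusted p under 0.05. Both SE 6 h mice lay above both pre-SE mice for 5 of 10 members, against 18.6% of all genes, and below them for 3 of 10, against 31.3%. The median logFC of the members was 0.31 and that of all genes −0.13. In whole tissue, fewer cells of a type and less RNA in each of them cannot be told apart, here and in all results that follow.

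At 2 days no member was called, against 5.07% of all genes called higher and 0.593% called lower by limma, and no member had an unadjusted p under 0.05, where 1977 higher and 1155 lower of the 15851 genes had one. Both SE 2 days mice lay above both pre-SE mice for 4 members (26.3% of all genes) and below them for 1 (25.6%). With LEV no member was called against SE alone at 6 h (0% of all genes called higher and 0.0126% lower) or at 2 days (0% in either direction). At 6 h, 3 members had an unadjusted p under 0.05 against SE alone, 2 higher and 1 lower, where 184 higher and 542 lower genes had one. At 2 days no member had one, where 208 higher and 220 lower of the 15851 genes had.

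**Figure D2:**
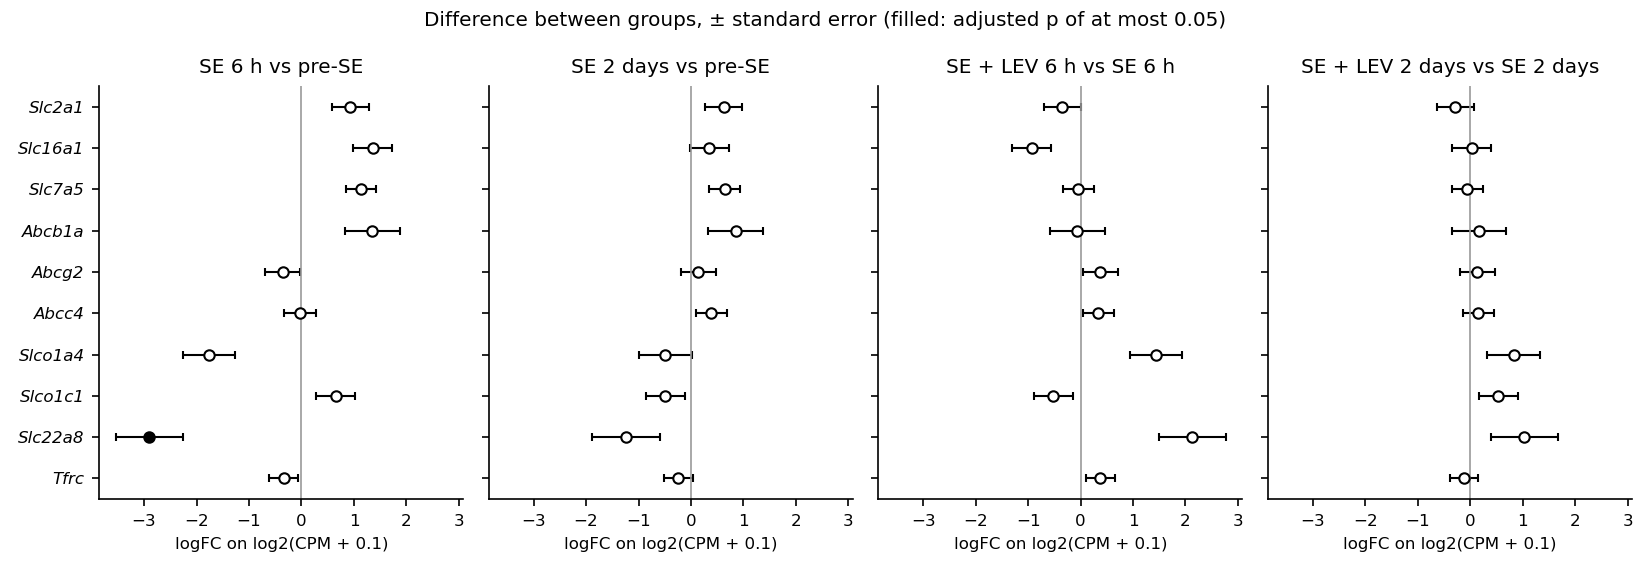
Differences between groups for the 10 transporters. Each point is the logFC on the log2(CPM + 0.1) scale, with bars of 1 standard error, and a filled point has an adjusted p of at most 0.05. The single filled point is *Slc22a8* at 6 h after SE (−2.90), and the same gene has the highest estimate of the 10 with LEV at 6 h (2.13). The SE 6 h mice stand in both panels for 6 h and the SE 2 days mice in both panels for 2 days.

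*Slc2a1* encodes the glucose carrier GLUT1. It lies on mm9 chromosome 4 from 118781316 to 118809935 on the plus strand. It had 79.9 and 81.5 CPM in mice 1 and 2 before SE, 131 and 181 at SE 6 h, 157 and 92.6 with LEV at 6 h, 113 and 136 at SE 2 days, and 142 and 73.3 with LEV at 2 days. The mice of all groups but SE + LEV 2 days lay above both pre-SE mice. Group means ran from 156 CPM in SE 6 h over 125 in both SE + LEV 6 h and SE 2 days and 108 in SE + LEV 2 days to 80.7 in pre-SE, and each pair of neighbours in this order overlapped. The logFC was 0.93 ± 0.35 (standard error) at 6 h (adjusted p = 0.21) and 0.62 ± 0.35 at 2 days (adjusted p = 0.37). In 4 of 5 groups the mouse with more choroid plexus tags, and likewise that with more leptomeningeal tags, also had more *Slc2a1*. Without the 4 libraries rich in choroid plexus tags the logFC at 6 h was 0.71, from 1 mouse against 1. With 1 mouse in each group this value has no spread within groups to be judged by. The part of choroid plexus tissue in the result was not tested.

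*Slc16a1* encodes the monocarboxylate carrier MCT1, which moves lactate and ketone bodies (mm9 chromosome 3, 104442591 to 104462385, plus strand). Pre-SE mice had 34.5 and 49.7 CPM, SE 6 h mice 71.8 and 157, SE + LEV 6 h mice 64.9 and 47.7, SE 2 days mice 46.9 and 58.9, and SE + LEV 2 days mice 63.8 and 45.3. The SE 6 h mice were above the mice of every other group, and the other 4 groups overlapped with their neighbours in the order of means. At 6 h the logFC was 1.36 ± 0.37 (adjusted p = 0.093), from 0.79 without SE 6 h mouse 2 to 1.92 without SE 6 h mouse 1, which was past the threshold (adjusted p = 0.043). SE 6 h mouse 2, the higher of both, was also the library with the highest summed CPM of choroid plexus markers. As for *Slc2a1*, the mouse with the higher choroid plexus sum had more *Slc16a1* in 4 of 5 groups, and the leptomeningeal sums gave the same order of mice. The SE 2 days mice were lower than the SE 6 h mice by a logFC of −1.01 ± 0.37 (unadjusted p = 0.022, adjusted p = 0.17). With LEV at 6 h the logFC against SE alone was −0.93 ± 0.37 (unadjusted p = 0.031, adjusted p = 1).

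*Slc7a5* encodes LAT1, the carrier of large neutral amino acids and of L-DOPA, which works as a pair with the product of *Slc3a2* (mm9 chromosome 8, 124405052 to 124431594, minus strand). It had 33.1 and 19.2 CPM before SE, 53.9 and 56.9 at SE 6 h, 56.6 and 51.1 with LEV at 6 h, 40.5 and 38.1 at SE 2 days, and 31.4 and 45.7 with LEV at 2 days. All 6 mice of the SE 6 h, SE + LEV 6 h and SE 2 days groups lay above both pre-SE mice, and the groups sampled at 6 h lay above those sampled at 2 days. The logFC against pre-SE was 1.13 ± 0.29 at 6 h (adjusted p = 0.076) and 0.64 ± 0.29 at 2 days (adjusted p = 0.26). It was 1.09 ± 0.29 with LEV at 6 h (adjusted p = 0.21), and SE + LEV 6 h differed from SE 6 h by −0.04 ± 0.29. In the deposited CPM the median gene was lower at 6 h by −0.13, and after rescaling by median-of-ratios, where that median was −0.005, the logFC of *Slc7a5* was 1.26 and past the threshold (adjusted p = 0.040). *Slc3a2* itself had a logFC of 0.89 ± 0.34 at 6 h (unadjusted p = 0.027, adjusted p = 0.21).

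The promoters of *Slc2a1* and *Slc16a1* are shown because CAGE tags mark the starts of RNA and because both carriers stood higher in both SE 6 h mice than before SE. They come from RefSeq (GRCm38.p6, a later build than the mm9 positions above), which matched 9 of the 10 genes and not *Slc7a5*. Each spans 300 bases, 250 before and 50 after an annotated start, 5' to 3' on the gene's strand. Capitals mark matches on either strand to 9 motifs. The core of a hypoxia response element, ACGTG, was present in 19.6% of all promoters of the table. The core of a dioxin response element, GCGTG, was present in 32.4%, the CCAAT box in 37.4% and the GC box, GGGCGG, in 35.7%. The E-box, CACGTG, which holds the hypoxia core on both strands, was present in 7.15%, and the TATA box, TATAAA, in 13.6%. The AP-1 site, TGACTCA, was present in 5.2%, the cAMP response element, TGACGTCA, in 1.79%, and the C/EBP-ATF element, TGATGNAA, in 3.97%.
Slc2a1, chr4:119108495-119108794, plus strand: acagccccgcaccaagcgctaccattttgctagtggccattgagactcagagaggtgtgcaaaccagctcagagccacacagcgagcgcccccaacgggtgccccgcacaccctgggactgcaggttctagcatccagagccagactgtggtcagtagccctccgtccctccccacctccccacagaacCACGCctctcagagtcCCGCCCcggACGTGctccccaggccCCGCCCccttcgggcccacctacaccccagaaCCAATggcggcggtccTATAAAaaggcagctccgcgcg
Slc16a1, chr3:104638414-104638713, plus strand: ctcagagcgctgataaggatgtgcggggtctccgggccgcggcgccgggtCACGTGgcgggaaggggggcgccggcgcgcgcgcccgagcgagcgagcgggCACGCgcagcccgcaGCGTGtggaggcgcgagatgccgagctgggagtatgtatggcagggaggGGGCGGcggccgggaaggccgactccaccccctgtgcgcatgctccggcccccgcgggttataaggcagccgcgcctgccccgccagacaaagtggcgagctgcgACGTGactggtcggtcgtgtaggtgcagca
Both promoters hold the hypoxia and dioxin response cores and the GC box. That of *Slc2a1* also has CCAAT and TATAAA from bases 263 and 279 of the window, both after the annotated start. That of *Slc16a1* has the full CACGTG. G and C make up 65.3% of the former and 73.7% of the latter, against a median of 52.7% over all promoters. These are matches of letters and not sites known to be bound in these mice.

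Among the efflux pumps, *Abcb1a* encodes P-glycoprotein, which returns many drugs, anti-epileptic drugs among them, from the vessel wall to the blood (mm9 chromosome 5, 8660077 to 8748575, plus strand). It was at the edge of what these libraries could count. Pre-SE mice had 0.14 and 0.14 CPM (4 and 7 tags), SE 6 h mice 0.42 and 0.62 (13 and 9 tags), SE + LEV 6 h mice 0.30 and 0.76 (9 and 8 tags), SE 2 days mice 0.38 and 0.29 (9 and 6 tags), and SE + LEV 2 days mice 0.25 and 0.58 (11 and 14 tags). All 8 mice after SE lay above both pre-SE mice, and the 4 groups after SE overlapped with each other in the order of their means. The logFC was 1.35 ± 0.52 at 6 h (unadjusted p = 0.027, adjusted p = 0.22) and 0.85 ± 0.52 at 2 days (adjusted p = 0.42). It was 1.29 ± 0.52 and 1.02 ± 0.52 with LEV at these times. At 6 h the estimate ran from 0.41 with a pseudocount of 1 CPM to 1.79 with one of 0.01, and was not past the threshold with either. *Abcb1a* has a close paralog, *Abcb1b*, and tags from the same sequence in both could have been split or lost. *Abcb1b* had 0.97 and 3.25 CPM before SE, 4.04 and 2.06 at SE 6 h and 1.87 and 3.96 at SE 2 days. With LEV it had 2.33 and 1.71 CPM at 6 h and 1.28 and 1.07 at 2 days. Each group after SE overlapped with pre-SE, and the logFC was 0.66 ± 0.59 at SE 6 h and 0.58 ± 0.59 at SE 2 days, neither called.

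*Abcg2* encodes the breast cancer resistance protein, another drug pump of the vessel wall (mm9 chromosome 6, 58534517 to 58642863, plus strand). It had 9.17 and 7.10 CPM before SE, 5.87 and 6.71 at SE 6 h, 7.41 and 9.01 with LEV at 6 h, 9.24 and 8.60 at SE 2 days, and 7.64 and 12.7 with LEV at 2 days. The SE 6 h mice were below the mice of every other group, with a logFC of −0.36 ± 0.33 against pre-SE that was not past the threshold (adjusted p = 0.61).

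*Abcc4* encodes MRP4, a pump of organic anions and cyclic nucleotides (mm9 chromosome 14, 118881914 to 119105441, minus strand). Its values were 5.59 and 5.63 CPM before SE, 5.26 and 5.76 at SE 6 h, 7.91 and 6.17 with LEV at 6 h, 8.44 and 6.45 at SE 2 days, and 7.66 and 8.95 with LEV at 2 days. It varied least of the 10 genes, by 1.7-fold from the lowest to the highest mouse. All 6 mice at 2 days or with LEV at 6 h lay above the other 4, and the logFC against pre-SE was 0.31 ± 0.30 with LEV at 6 h, 0.39 ± 0.30 at SE 2 days and 0.55 ± 0.30 with LEV at 2 days, with adjusted p from 0.55 to 0.76.

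The organic anion carriers had estimates of both signs at 6 h. *Slc22a8* encodes OAT3, which takes organic anions such as neurotransmitter metabolites and drugs out of the brain fluid, and lies on mm9 chromosome 19 from 8665744 to 8686324 on the plus strand, with 1 annotated start and up to 12 exons. It had 3.48 and 4.29 CPM (101 and 222 tags) before SE and 0.29 and 0.62 CPM (9 and 9 tags) at SE 6 h. With LEV at 6 h it had 2.89 and 1.71 CPM, at SE 2 days 3.35 and 0.72, and with LEV at 2 days 2.70 and 4.11. Both SE 6 h mice lay below the other 8 mice, and SE 2 days mouse 2 was the next lowest. The logFC at 6 h was −2.90 ± 0.64 (limma, adjusted p = 0.041). The call rests on every mouse of the 3 groups sampled before SE or at 6 h, since the adjusted p rose to 0.15 or 0.21 without 1 of the pre-SE mice, to 0.18 or 0.13 without 1 of the SE 6 h mice, and to 0.060 without either of the SE + LEV 6 h mice, while the logFC stayed between −3.35 and −2.46. Leaving out any of these mice left 1 in its group, and fewer of all genes were called in both directions as well. With the replicate number as a block the adjusted p of *Slc22a8* was 0.062.

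At 2 days the logFC of *Slc22a8* against pre-SE was −1.24 ± 0.64 (adjusted p = 0.32), with mice that differed from each other more than their mean differed from pre-SE. With LEV at 6 h the logFC against SE alone was 2.13 ± 0.64 (unadjusted p = 0.0074), which did not pass the adjustment over all genes (adjusted p = 0.69), though both mice with LEV lay above both without. Against pre-SE the same mice had a logFC of −0.77 ± 0.64 (adjusted p = 0.71). The comparisons at 6 h share the SE 6 h mice, and both rest on the same 2 low values. At 2 days the logFC with LEV against SE alone was 1.03 ± 0.64 and the mice overlapped. The difference between the LEV effects at 2 days and 6 h was −1.10 ± 0.90 (unadjusted p = 0.25), with 0% of all genes called for it.

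*Slco1a4* encodes Oatp1a4, a carrier of organic anions, bile acids and steroid conjugates on both faces of the vessel wall (mm9 chromosome 6, 141753961 to 141804720, minus strand). It had 16.2 and 13.1 CPM before SE, 3.75 and 4.80 at SE 6 h, 10.2 and 13.5 with LEV at 6 h, 16.4 and 6.50 at SE 2 days, and 11.7 and 29.2 with LEV at 2 days. As with *Slc22a8*, both SE 6 h mice were below the other 8. The logFC at 6 h was −1.76 ± 0.50 (unadjusted p = 0.0057, adjusted p = 0.11), and it was past the threshold where only the groups compared were fitted (adjusted p = 0.032). SE 2 days mice stood above SE 6 h mice by 1.27 ± 0.50 (unadjusted p = 0.030, adjusted p = 0.20), and SE + LEV 6 h mice by 1.44 ± 0.50 (unadjusted p = 0.017, adjusted p = 0.88). Other genes of the Slco1a family have similar sequences, so tags could have been divided among them.

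*Slco1c1* encodes Oatp1c1, which brings the thyroid hormone thyroxine into the brain (mm9 chromosome 6, 141472907 to 141518241, plus strand), and lies beside the Slco1a genes. Unlike *Slco1a4* it was highest in the SE 6 h mice, at 37.3 and 30.9 CPM, above the mice of every other group. Pre-SE mice had 27.9 and 16.8 CPM, SE + LEV 6 h mice 26.0 and 21.6, SE 2 days mice 10.6 and 22.3, and SE + LEV 2 days mice 21.3 and 23.5. The logFC at 6 h was 0.65 ± 0.37 (adjusted p = 0.39). From 6 h to 2 days after SE it was −1.14 ± 0.37 (unadjusted p = 0.012, adjusted p = 0.13).

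Over the step from SE 6 h to SE 2 days no member was called, against 3.14% of all genes called higher and 1.11% lower by limma, and 4 of 10 members had an unadjusted p under 0.05, as had 2026 higher and 1155 lower of the 15851 genes. These were *Slc22a8* and *Slco1a4*, which stood higher, and *Slco1c1* and *Slc16a1*, which stood lower at 2 days. Both SE 2 days mice were above both SE 6 h mice for 4 members (31% of all genes) and below them for 4 (20.1%). The estimates of all 4 from pre-SE to 6 h had the opposite sign, and both steps share the SE 6 h mice.

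The promoters of *Slc22a8* and *Slco1a4* are shown as those of the 2 members lowest in both SE 6 h mice, taken and marked as above.
Slc22a8, chr19:8592932-8593231, plus strand: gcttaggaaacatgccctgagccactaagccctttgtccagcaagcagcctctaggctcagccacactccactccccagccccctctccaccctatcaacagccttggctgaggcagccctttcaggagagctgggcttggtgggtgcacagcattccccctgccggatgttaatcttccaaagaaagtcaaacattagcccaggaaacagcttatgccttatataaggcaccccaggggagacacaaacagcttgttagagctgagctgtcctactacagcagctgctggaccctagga
Slco1a4, chr6:141856171-141856470, minus strand: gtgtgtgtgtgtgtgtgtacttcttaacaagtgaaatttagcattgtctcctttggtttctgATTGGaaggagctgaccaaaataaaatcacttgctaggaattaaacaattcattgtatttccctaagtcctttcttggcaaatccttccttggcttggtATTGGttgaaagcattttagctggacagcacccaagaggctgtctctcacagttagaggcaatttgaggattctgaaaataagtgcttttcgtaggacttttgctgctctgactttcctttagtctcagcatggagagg
None of the motifs searched is written in the 300 bases of *Slc22a8*, whose share of G and C was 55%. The window of *Slco1a4*, with 40.7% G and C, holds CCAAT 2 times, both on the opposite strand. No match says only that these letters are not in the windows. The promoter of *Slco1c1* (logFC 0.65 at 6 h) holds the hypoxia core, the E-box, CCAAT and TATAAA. No motif was found at *Abcb1a*, which stood higher in both SE 6 h mice, and the promoters of *Abcg2* (−0.36) lack the hypoxia core. A promoter of *Abcc4* (−0.03) and a promoter of *Tfrc* (−0.34) hold both response cores and the GC box, as *Slc2a1* and *Slc16a1* do. A link between the matches and the direction at 6 h was not tested.

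*Tfrc* encodes the transferrin receptor, which brings iron across the vessel wall and into cells (mm9 chromosome 16, 32609006 to 32632880, plus strand). It had 122 and 91.1 CPM before SE, 96 and 72.4 at SE 6 h, 135 and 87.9 with LEV at 6 h, 85.1 and 94.0 at SE 2 days, and 82.3 and 83.3 with LEV at 2 days. The groups overlapped in every step of the order of their means, and in the comparisons run between 2 groups its logFC lay between −0.35 and 0.38. The estimate against pre-SE was −0.34 ± 0.27 at 6 h (adjusted p = 0.54) and −0.24 ± 0.27 at 2 days (adjusted p = 0.69).

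With LEV at 6 h, both mice were above both SE 6 h mice for 4 members, *Slc22a8*, *Slco1a4*, *Abcg2* and *Abcc4*, against 16.1% of all genes, and below them for 2, *Slc16a1* and *Slco1c1*, against 13.4%. Of these 6, *Slc22a8*, *Slco1a4* and *Slc16a1* had an unadjusted p under 0.05 and none passed the adjustment, where all genes together gave 2 calls, both lower, and 184 higher and 542 lower genes at an unadjusted p under 0.05. At 2 days both LEV mice were above both SE 2 days mice for 0 members (15.2% of all genes) and below them for 1, *Tfrc* (12.2%), and the logFC of the 10 members ran from −0.28 to 1.03 with standard errors of 0.27 to 0.64. Over all genes limma called 0 at 2 days, and 208 higher and 220 lower genes had an unadjusted p under 0.05. Against pre-SE, no member was called with LEV at 6 h (0.322% of all genes called in either direction) or at 2 days (2.85%).

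Of the other 9 members, the one most like *Slc22a8* over the 10 libraries was *Slco1a4*, with a Pearson r of 0.91 on the log2(CPM + 0.1) scale, which placed it at rank 13 among all genes tested. The other 8 had an r from −0.64 (*Slc16a1*) to 0.59 (*Abcg2*). The highest r belonged to *Gmpr*, which encodes a reductase of guanosine monophosphate, with 0.95, *Susd1* with 0.95, and *Igsf8*, which encodes a membrane protein of the immunoglobulin family, with 0.94. *Gmpr* had 52.1 and 45.5 CPM before SE, 13.98 and 17.2 at SE 6 h, 35.9 and 27.8 with LEV at 6 h, 50.1 and 26.2 at SE 2 days, and 41.5 and 42.8 with LEV at 2 days. As in *Slc22a8*, its SE 6 h mice were lowest and SE 2 days mouse 2 was below mouse 1. The points of these correlations share their libraries and the 5 groups, and the r are a description.

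Of 15 endothelial markers 14 were listed, with their defining markers *Pecam1*, *Cldn5* and *Cdh5* above 0 in all 10 libraries. Their summed CPM was 133 to 138 in pre-SE mice, 218 to 305 in SE 6 h mice, 166 to 280 with LEV at 6 h, 234 to 251 at SE 2 days and 195 to 253 with LEV at 2 days. The 8 mice after SE were thus all above both pre-SE mice. At 6 h, 2 of the 14 were called higher, *Cdh5* (2.10 ± 0.30), a cadherin of endothelial junctions, and *Esam* (1.68 ± 0.35), an adhesion molecule, and at 2 days 1, *Vwf* (1.95 ± 0.40), the von Willebrand factor. The median logFC of the 14 was 0.74 at 6 h and 0.88 at 2 days, so *Slc22a8* and *Slco1a4* stood lower at 6 h while the endothelial sum stood higher in the same mice. In all 5 groups the mouse with the higher endothelial sum also had more *Slco1a4* and *Abcg2*, and in 1 of 5 more *Slc2a1* or *Slc16a1*.

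**Figure D3:**
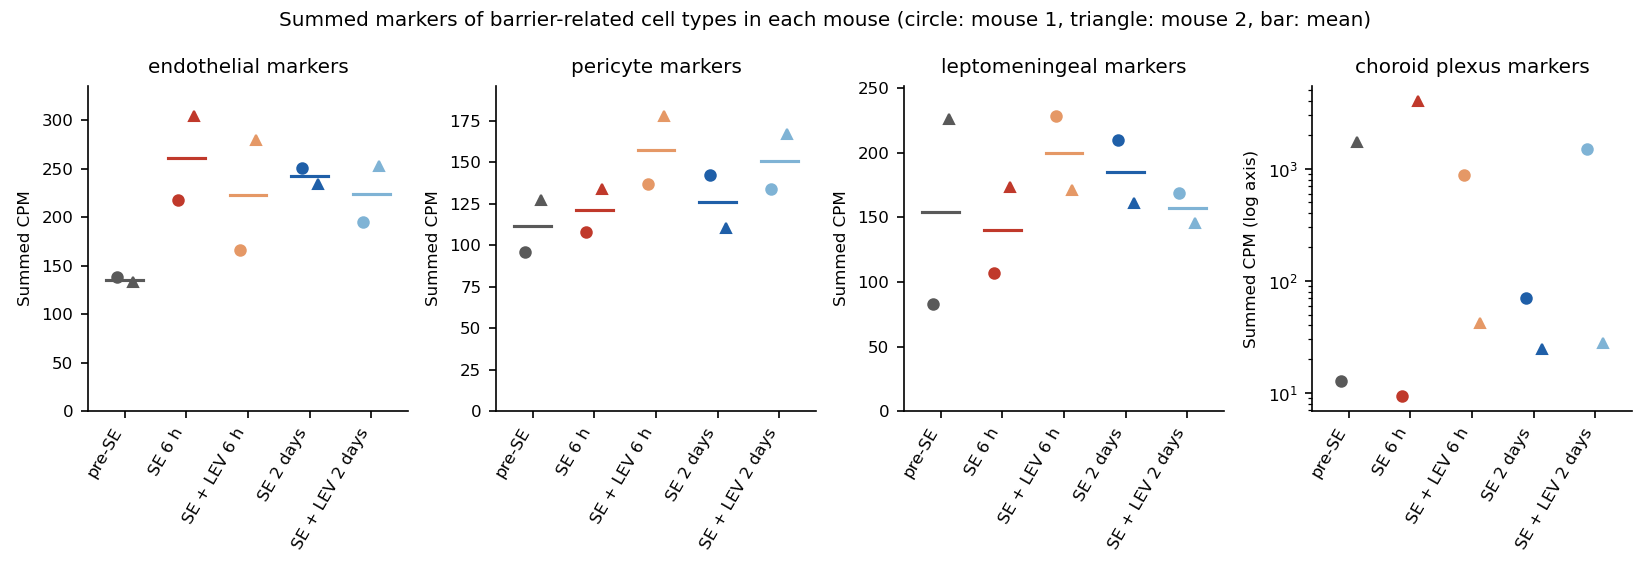
Summed CPM of markers of endothelium, pericytes, leptomeninges and choroid plexus in each mouse (circle for mouse 1, triangle for mouse 2, bar for the mean). The choroid plexus panel has a log axis and no means, and its sums run from 9.33 to 4031 within the SE 6 h group alone. Endothelial sums of both pre-SE mice (133 and 138) lie below those of all other mice.

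The 8 pericyte markers summed to 96 to 127 CPM in pre-SE mice and to 108 to 178 in the other groups, and none was called against pre-SE at 6 h or 2 days. The 12 leptomeningeal markers, genes of the membranes around the brain, of which some cells also use *Slc22a8*, summed to 82.9 and 226 before SE, 107 and 174 at SE 6 h and 229 and 171 with LEV at 6 h. All 12 had a higher estimate with LEV at 6 h than with SE alone, with a median logFC of 0.74 and none called, as *Slc22a8* had. At 2 days they summed to 210 and 161 with SE alone and to 169 and 146 with LEV, where 10 of the 12 had a lower estimate (median logFC −0.59) and *Slc22a8* a higher one. Their part in its estimates was not tested. Of 10 choroid plexus markers 6 were listed, of the defining ones *Ttr* and *Kcnj13* but not *Folr1*. *Ttr* had 5.83 and 1668 CPM before SE and 4.33 and 3936 at SE 6 h, so a mouse with few and a mouse with many choroid plexus tags stood in each of these groups. In 4 of 5 groups the mouse with the higher choroid plexus sum also had more *Slc22a8*. The same count held for the leptomeningeal markers, which ordered the mice as the choroid plexus markers did, and for the pericyte markers. SE 6 h mouse 2, with the highest choroid plexus sum, had 0.62 CPM of *Slc22a8*. Without the 4 libraries rich in choroid plexus tags the logFC of *Slc22a8* at 6 h was −3.20, from 1 mouse against 1. *Hbb-b1* and *Hbb-b2*, globins of red blood cells and the 2 listed of 8 markers of these cells, summed to 22.6 to 23.8 CPM before SE and to 2.79 to 12.5 after it.

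The 8 microglial markers summed to 413 to 485 CPM before SE, 328 to 339 at 6 h, where 2 were called lower (*P2ry12*, −2.51, and *Tmem119*, −2.50), and 1153 to 1452 at 2 days, where 4 were called higher. Of 8 astrocyte markers 2 were called higher at 2 days and 0 at 6 h. At 2 days 4 of the 8 had higher and 4 lower estimates, with a median logFC of 0.04. In each direction 3 had an unadjusted p under 0.05 (limma). Of 8 oligodendrocyte and 8 neuronal markers none was called at either time, with a median logFC at 2 days of −1.13 and −0.53. The neuronal markers, which check the label of brain tissue, summed to 3877 to 7526 CPM over the 10 libraries.

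A further 40 genes of barrier transport were read for comparison, of which 39 were listed and tested. At 6 h 1 of the 39 was called higher, against 2.76% of all genes. It was *Slc6a8*, the creatine carrier, which had 119 and 123 CPM before SE and 438 and 257 at SE 6 h (1.47 ± 0.32, limma, adjusted p = 0.038). The uncalled genes with an unadjusted p under 0.05 at 6 h included, with higher estimates, *Slc30a1*, an exporter of zinc (1.07), *Slc3a2* (0.89) and *Slc7a1*, a carrier of cationic amino acids (0.88), and, with lower ones, *Slc40a1*, the iron exporter ferroportin (−1.45), *Slc19a3*, a thiamine carrier (−1.03), and *Slc38a5*, a glutamine carrier (−1.0). Their median logFC was 0.00 over the 39, so that both directions were about even (20 estimates higher and 19 lower).

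At 2 days 1 of the 39 was called higher against pre-SE, where 5.07% of all genes were. It was *Cav1*, which encodes the coat protein of caveolae, the vesicles of transcytosis. *Cav1* had 10.8 and 10.8 CPM before SE, 34.7 and 14.1 at SE 6 h, and 44.9 and 67.3 at SE 2 days (2.33 ± 0.51, limma, adjusted p = 0.027). With LEV at 2 days it had 53.8 and 18.6 CPM, which overlapped with SE alone (−0.80 ± 0.51, adjusted p = 1). Uncalled genes with an unadjusted p under 0.05 included *Slc38a5* (1.39), *Slc29a4*, a carrier of monoamines and adenosine (1.25), *Slc6a8* (1.11), *Abca1*, a lipid exporter (1.01), *Scarb1*, a lipoprotein receptor (0.68), and *Slc7a1* (0.68) with higher estimates, and *Slc27a1*, a fatty acid carrier (−1.72), *Slc5a6*, a vitamin carrier (−0.81), and *Abcc5*, a pump of organic anions (−0.61), with lower ones. The median logFC over the 39 was 0.28.

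From SE 6 h to SE 2 days *Slc38a5* was called higher, from 0.96 and 0.62 CPM to 3.22 and 6.16 (2.38 ± 0.43, limma, adjusted p = 0.015). This was the 1 call among the 39, where 3.14% of all genes were called higher. Uncalled genes with an unadjusted p under 0.05 over this step included *Slco2b1*, another organic anion carrier (1.69), *Cav1* (1.31), *Slc29a4* (1.19), *Slc29a1*, a nucleoside carrier (0.98), and *Slc39a10*, a zinc importer (0.88), with higher estimates, and *Slc27a1* (−1.58), *Slc30a1* (−0.78) and *Abcc5* (−0.67) with lower ones. *Slc38a5* stood below pre-SE at 6 h and above it at 2 days, while *Slc22a8* and *Slco1a4* stood below pre-SE at 6 h and, in 1 of the 2 mice, near it at 2 days. With LEV none of the 39 was called against SE alone at either time by limma, and 1 at each time had an unadjusted p under 0.05, *Slc30a1* at 6 h (−0.75) and *Abcc5* at 2 days (0.55). Against pre-SE none was called with LEV at either time by limma, 3 had an unadjusted p under 0.05 at 6 h (*Slc6a8*, 1.02, *Slc3a2*, 0.77, and *Slc19a3*, −1.05), and 6 at 2 days (*Cav1*, 1.54, *Slc38a5*, 1.42, *Slco2b1*, 1.32, *Abca1*, 0.96, *Slc6a8*, 0.73, and *Slc5a6*, −0.62).

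**Figure D4:**
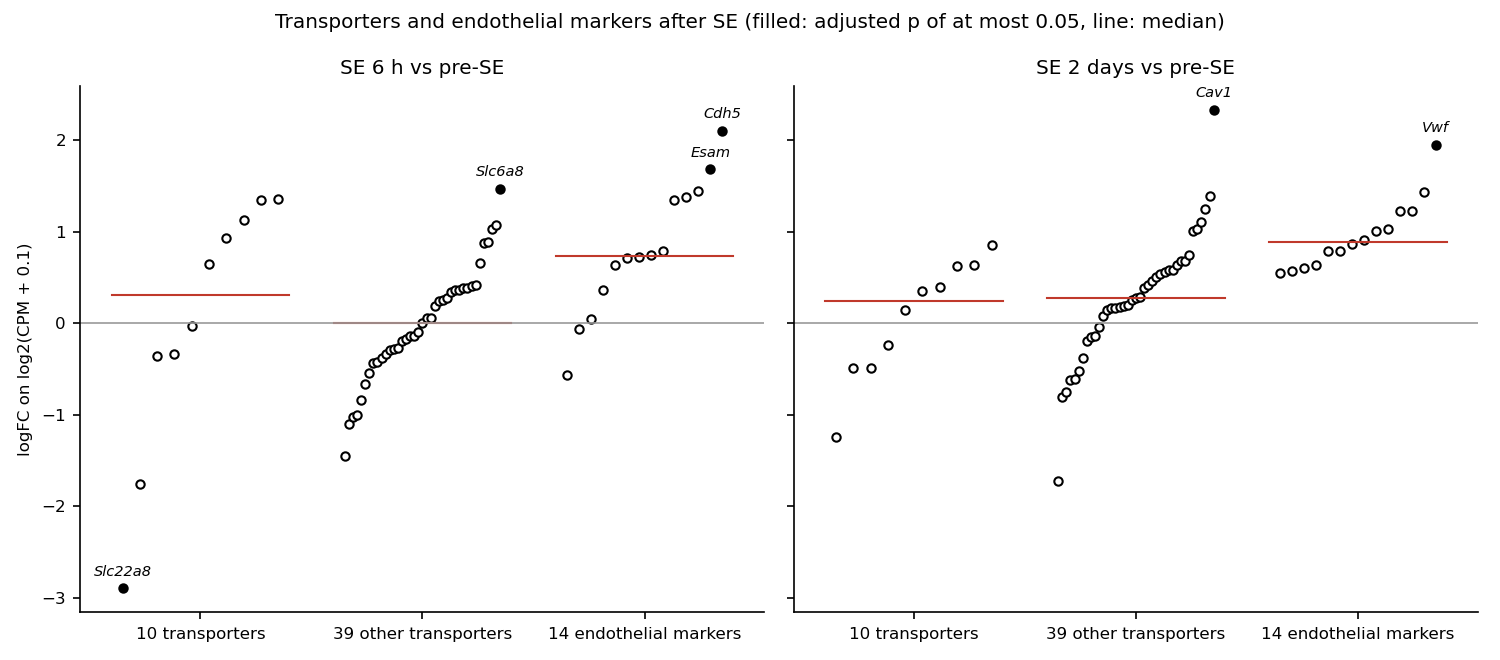
The logFC at 6 h (left) and 2 days (right) after SE against pre-SE for the 10 transporters, the 39 other genes of barrier transport and the 14 endothelial markers, each point 1 gene in rising order. Filled points have an adjusted p of at most 0.05 and are named, and the line is the median of the group (0.31, 0.00 and 0.74 at 6 h, 0.24, 0.28 and 0.88 at 2 days).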

How the data were processed

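CAGE libraries were made from the hippocampi of 10 mice. The authors mapped tags to mm9 with BWA 0.7.17 and HISAT2 2.0.5, clustered them, and deposited CPM per gene, to 2 decimals and relative to all listed genes of the library. The step from clusters to genes is not given in the sources used here. All 15900 identifiers were found in the mm9 annotation, and 0 columns of values per mouse stayed unused. Within rounding, the values of a library were whole multiples of what 1 tag was worth, which gave the library totals and tag numbers quoted. In the deeper libraries the rounding was coarse against 1 tag, so there the low values carry this estimate. The limit of detection, 3 tags, was worth 0.058 to 0.285 CPM.

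Groups were compared with limma 3.58.1 (R 4.3.3) on log2(CPM + 0.1), in 1 fit of 5 group means with a mean-variance trend. Genes needed 0.1 CPM in at least 2 libraries (15851 genes), and p-values were adjusted over all of these by the Benjamini-Hochberg method. The fit was tested on simulated counts, drawn with the same setting of spread for all genes and no difference in tissue between libraries. That test does not say how the fit deals with such differences. Python 3.11.15, pandas 2.3.3, numpy 2.4.6 and matplotlib 3.10.9 served for tables and figures.

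The members, the list of 40 other transporters and the marker lists were chosen with earlier results of these data known. Named besides the members were the 3 genes most like each called member, other transporters called or at an unadjusted p under 0.05, and the defining markers (the first 3 of each list). A few genes past these limits are not reported here. *Esam*, *Vwf* and *Hbb-b2* were named, and the values of *Abcb1b* given, after these values were seen. Promoters were read from RefSeq and searched on both strands. Alternatives tried were other pseudocounts (0.01, 0.5 and 1), other filters (none, or 1 CPM), rescaling by median-of-ratios or TMM, the replicate number as a block, no trend, only the groups compared, and each mouse left out in turn. Leaving out the 4 libraries rich in choroid plexus tags and crossing the numbers of SE + LEV 2 days in the block were added after seeing the data.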

Additional observations from a re-analysis of the deposited data

How the results depend on the processing

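With 2 mice in a group, only large differences could pass. For SE 6 h against pre-SE, 0 members were called higher and 1 lower, where 437 of all genes were called higher and 32 lower. After median-of-ratios rescaling 532 of all genes were called higher, and after TMM rescaling 529. With a pseudocount of 1, 31 of all genes were called lower, and without the trend 39. The replicate number as a block and only the groups compared gave 29 and 31 called lower. Leaving out a pre-SE or SE 6 h mouse left 1 in its group, and fewer genes were called in both directions. One member, *Slc7a5*, was called higher after median-of-ratios rescaling (1 member) and after TMM rescaling (1 member), and leaving out each mouse gave 0 to 1 (*Slc16a1* without SE 6 h mouse 1). The number called lower became 0 with a pseudocount of 1 (adjusted p of *Slc22a8* 0.057), 0 without the mean-variance trend (0.052), 0 without the 4 libraries rich in choroid plexus tags (0.47) and 2 with only the groups compared, and it was 0 to 1 with each mouse left out. With the replicate number as a block it was 0 (adjusted p of *Slc22a8* 0.062). Same-numbered mice are different animals and share only a number, and the correlation of their deviations from the group means ran from −0.44 to 0.34, 0.34 for SE 6 h and pre-SE. The block, and for SE + LEV 2 days (−0.18 with SE 2 days) the block with crossed numbers, changed no other count of members called. In the other 7 comparisons no alternative that was read for them called a member. The fit without the libraries rich in choroid plexus tags was read for members at SE 6 h against pre-SE alone. It left 1 mouse in each of these groups. The block with crossed numbers was read for members in SE + LEV 2 days against SE 2 days and against pre-SE alone. Both fits covered the other comparisons too, where their results for the members are not reported here. The cause of these changes was not tested. Count tests on recovered tags were listed as alternatives and not run.

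Of 62 differences of members that were followed over the settings, 18 changed sign in some setting, all uncalled and at most 1.03 in size. The 62 do not hold all 10 members for every comparison, so differences outside them may have changed sign as well. After rescaling, *Abcc4* at SE 6 h against pre-SE was 0.10 by median-of-ratios and 0.10 by TMM, *Tfrc* between SE 2 days and SE 6 h was −0.0027 by median-of-ratios, and *Slc16a1* with LEV at 2 days was −0.02 and −0.03. Leaving out each mouse gave the remaining changes among the 62, as the following lowest and highest logFC. At SE 6 h against pre-SE *Abcc4* ran from −0.09 to 0.04. At SE 2 days against pre-SE *Abcg2* ran from −0.04 to 0.32, *Slco1a4* from −1.15 to 0.17 and *Slco1c1* from −1.02 to 0.04, and against SE 6 h *Tfrc* ran from −0.10 to 0.30. With LEV at 6 h *Slc2a1* ran from −0.73 to 0.03, *Abcb1a* from −0.61 to 0.49 and *Slc7a5* from −0.11 to 0.03. With LEV at 2 days *Slc2a1* ran from −0.76 to 0.20, *Abcb1a* from −0.31 to 0.65, *Abcg2* from −0.22 to 0.50, *Abcc4* from −0.03 to 0.36, *Slc7a5* from −0.32 to 0.22, *Slc16a1* from −0.21 to 0.28 and *Slc22a8* from −0.01 to 2.07, and against pre-SE *Slc22a8* ran from −0.50 to 0.09 and *Slco1a4* from −0.32 to 0.99. The difference of the LEV effects for *Slco1a4* ran from −1.27 to 0.05.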
